A study of Mus musculus with 72 samples.

Results

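Genes that mark the classes of inhibitory interneurons, together with the enzymes that make their transmitter GABA, were followed in 3 brain regions (cerebral cortex, hippocampus and cerebellum) of newborn to adult mice. The genes were chosen by name for their known roles, with earlier results of these data known: Pvalb, Calb2, Sst, Vip, Npy, Cck, Reln, Gad1 and Gad2. All 9 were measured, by 12 of the 45101 probe sets of the array. Reln, Gad1 and Gad2 had 2 probe sets each, and the probe set with the higher mean stands for the gene unless the other is named. RNA from dissected tissue was hybridised to 72 Affymetrix mouse genome-wide arrays, 1 array for each mouse and region, and 70 arrays were used. The mice were Ts1Cje, which carry an extra copy of a segment of chromosome 16, or their disomic C57BL/6 littermates (titled Wildtype). They were sampled at postnatal days 1, 15, 30 and 84 (P1, P15, P30 and P84), with 3 mice in a group and 2 in disomic P15 cerebellum and disomic P15 hippocampus. All were bred from Ts1Cje fathers and C57BL/6 mothers and labelled female, although on 67 of the 70 arrays used the Y-linked Eif2s3y read higher than Xist. The exceptions were Ts1Cje P1 replicate 3 in cortex, cerebellum and hippocampus, so every P1 genotype comparison includes such an array. The Ts1Cje segment is translocated to chromosome 12, where a stretch that holds Sp8 and a few other genes is lost from 1 copy, and runs from Sod1, of which 1 copy is truncated, to Zbtb21. No member lies in it: Sst is on chromosome 16 (GRCm38.p6 chr16:23889573-23891342), proximal to the segment, whose first gene Sod1 starts at 90220762.

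Interneurons release GABA, which GAD67 (from Gad1) and GAD65 (from Gad2) make from glutamate. GAD67 supplies most of the GABA of the cell, while GAD65 sits mainly at synaptic vesicles. In the cortex and hippocampus, fast-spiking basket and chandelier cells carry the calcium buffer parvalbumin (Pvalb), and cells that inhibit distal dendrites release somatostatin (Sst). Cells that mostly inhibit other interneurons carry vasoactive intestinal peptide (Vip) or calretinin (Calb2). Neuropeptide Y (Npy) and reelin (Reln) mark neurogliaform and other types, and cholecystokinin (Cck) marks a further class of basket cells. Several of these genes are not limited to interneurons. Purkinje cells of the cerebellum are GABAergic and carry parvalbumin, cerebellar granule cells carry calretinin and reelin, forebrain pyramidal cells carry cholecystokinin, and Cajal-Retzius cells of the newborn forebrain secrete reelin. In whole tissue, fewer cells of a type and less RNA per cell cannot be told apart.

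Sst, Vip and Cck are shown by their promoters because these peptide genes are textbook targets of cAMP signalling through CREB, whose full binding element reads TGACGTCA and whose core reads TGACG. RefSeq windows of 300 bases, from 250 before to 50 after a transcript start (build GRCm38.p6), were at hand for 8 of the 9 genes. The full element, which reads the same on both strands, was found in 1 of these genes, Sst, and in 1.8% of the 32544 distinct windows of all genes. The core, searched on both strands and contained in the full element, was found in 4 of the genes (Sst, Vip, Cck and Gad2) and in 20.9% of all windows. In the windows below, read 5′ to 3′ on the strand of the gene, capitals mark the full element of Sst and the core of Vip and Cck, the last on the reverse strand. Their distances to the start are 48, 79 and 47 bases. The Sst window is chr16:23890795-23891094 (minus strand), that of Vip is chr10:5638968-5639267 (plus strand) and that of Cck is chr9:121495645-121495944 (minus strand).
Sst: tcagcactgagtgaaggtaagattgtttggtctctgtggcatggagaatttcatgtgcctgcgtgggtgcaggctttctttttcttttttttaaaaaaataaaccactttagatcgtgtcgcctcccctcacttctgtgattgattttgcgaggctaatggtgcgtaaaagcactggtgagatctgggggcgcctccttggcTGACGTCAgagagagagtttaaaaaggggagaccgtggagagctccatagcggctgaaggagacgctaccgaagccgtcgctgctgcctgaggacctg
Vip: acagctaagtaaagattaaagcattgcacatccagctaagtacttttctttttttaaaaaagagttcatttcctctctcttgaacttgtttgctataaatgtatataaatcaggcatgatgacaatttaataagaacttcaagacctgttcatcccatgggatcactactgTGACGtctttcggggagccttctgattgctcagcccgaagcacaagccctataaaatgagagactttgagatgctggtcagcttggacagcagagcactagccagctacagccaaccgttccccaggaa
Cck: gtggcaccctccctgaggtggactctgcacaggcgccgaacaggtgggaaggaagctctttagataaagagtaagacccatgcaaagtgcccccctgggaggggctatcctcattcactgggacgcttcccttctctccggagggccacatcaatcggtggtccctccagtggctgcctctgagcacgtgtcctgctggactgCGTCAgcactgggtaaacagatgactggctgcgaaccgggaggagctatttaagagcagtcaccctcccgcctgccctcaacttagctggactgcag
The box TATAAA, on either strand, was found in the windows of 2 of the genes, Vip and Gad1, and in 13.6% of all windows. A match describes letters only, and binding was not measured.

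Values are log2 intensities after GCRMA and are compared within a probe set, not between genes. The order of Eif2s3y and Xist is an exception, and between different probe sets it cannot settle the sex of a mouse. A level under the median of all probe sets on an array (3.20 to 3.37) was taken as not shown above background. Disomic P15 replicate 3 of cerebellum and of hippocampus were left out because they lay with the other region over all probe sets: on an axis that runs from 0 at the hippocampus mean to 1 at the cerebellum mean of that age, the cerebellum label read 0.01 and the hippocampus label 0.99. On 3 further disomic replicate 3 arrays (P1 cerebellum, P84 cortex and P84 hippocampus) the upper quartile was 4.97 to 5.51, against 5.65 to 5.93 on the others, and results that rest on these dim arrays are also given without them. Ts1Cje P1 hippocampus replicate 3 had all 7 cerebellum markers above every other hippocampus array of its age, with a list mean of 6.22 against at most 4.29. Higher cerebellum markers also set apart Ts1Cje replicate 3 at P30 (4.81 against at most 3.81) and Ts1Cje replicate 3 and disomic replicates 2 and 3 at P84 (4.56 to 4.79 against at most 3.70). Disomic P30 cerebellum replicate 2 had 3 of 5 thalamus markers above every other cerebellum array of its age. Results that move without these 6 arrays, a setting chosen after seeing the data that leaves 1 disomic P84 hippocampus array assumed to vary like the other groups, are given in both ways. A value was called when its moderated t from limma was 4 or more in size and its p, adjusted after Benjamini and Hochberg across the 45101 probe sets, did not exceed 0.05.

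**Figure D1:**
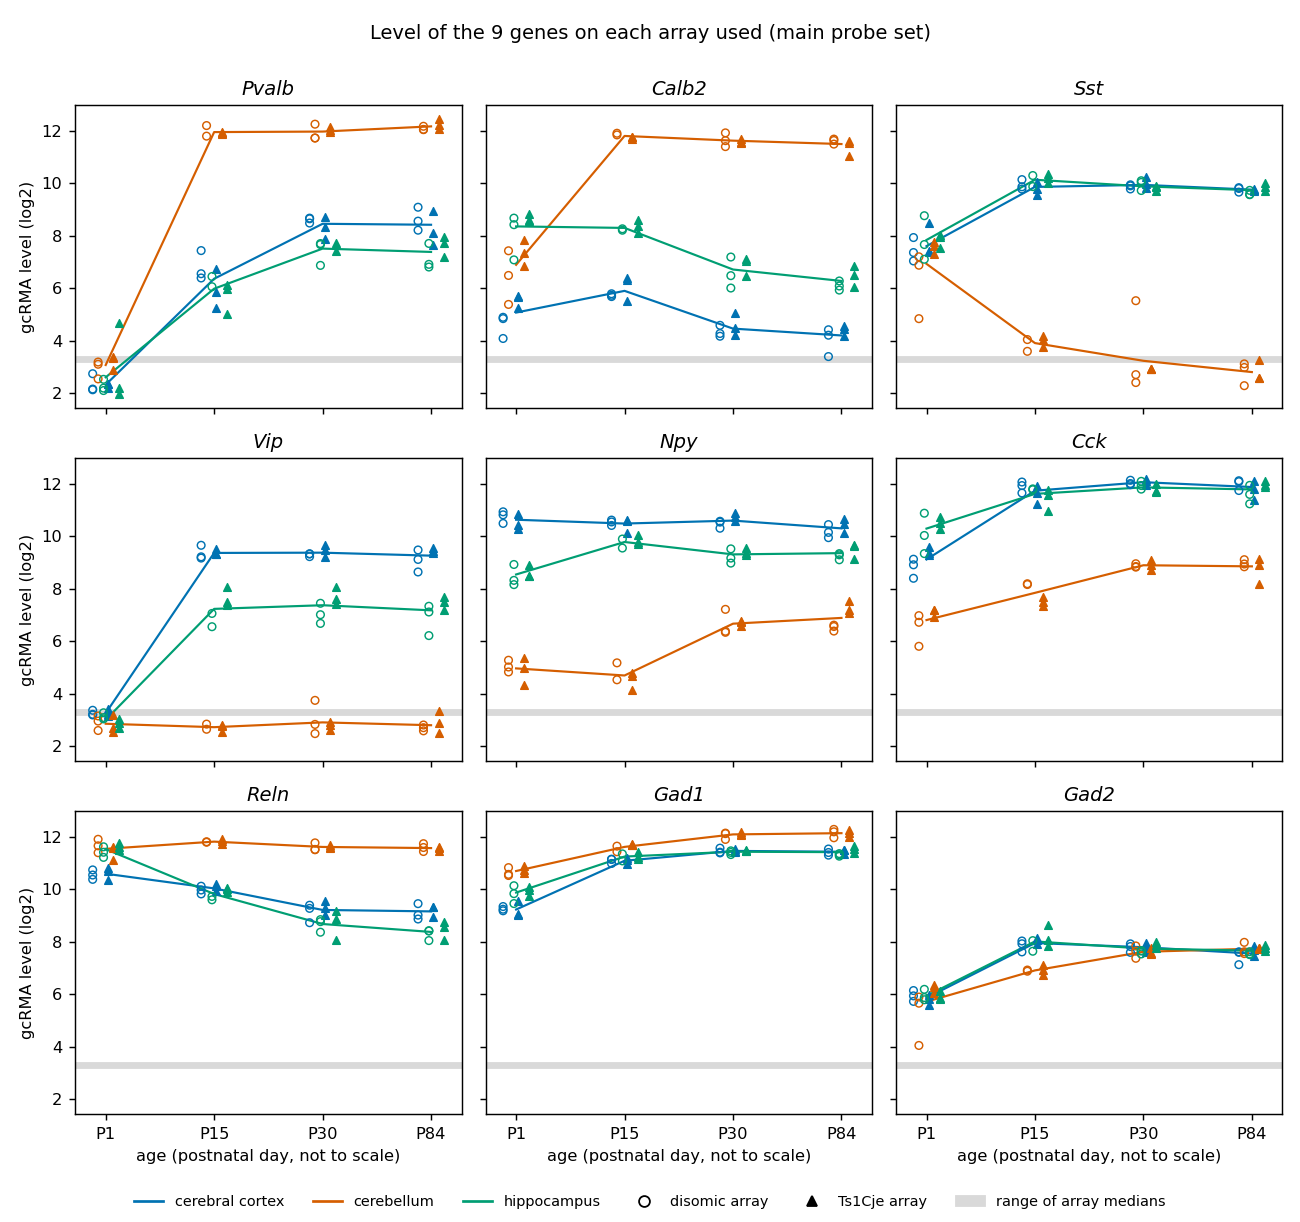
Log2 level (vertical axis) of each of the 9 genes on every array used, by age and region, with circles for disomic and triangles for Ts1Cje arrays, lines through the means of a region and a grey band for the range of the array medians. Pvalb and Calb2 are highest in cerebellum from P15 on, Sst, Vip, Npy and Cck are lowest there, and Ts1Cje and disomic points largely intermingle.

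Pvalb had the widest range of the 9 genes. In cerebellum its 6 arrays at P1 lay between 2.54 and 3.37 (median 3.14), around the background level, and its 5 arrays at P15 between 11.80 and 12.20 (median 11.91). The P30 arrays (11.72 to 12.25, median 11.98) and P84 arrays (12.04 to 12.44, median 12.13) overlapped with those of P15, so nearly the whole rise was complete by P15. In cortex the level rose in a pair of steps, from a median of 2.27 (2.13 to 2.74) at P1 to 6.47 (5.23 to 7.44) at P15 and 8.57 (7.89 to 8.71) at P30, with 8.38 (7.64 to 9.09) at P84. Hippocampus followed the same course at lower levels, with medians of 2.19 (1.95 to 4.68), 6.06 (5.03 to 6.45), 7.66 (6.87 to 7.73) and 7.45 (6.81 to 7.94). The 4.68 at P1 is the array with the cerebellum markers, and the other 5 arrays lay between 1.95 and 2.53. From P1 to P84 Pvalb rose by 9.10 (log2, 95% interval 8.54 to 9.65) in cerebellum, 6.10 (5.55 to 6.65) in cortex and 4.78 (4.23 to 5.33) in hippocampus, which are lower limits to the true change wherever P1 was at background. The step from P15 to P30 was called in cortex (2.09) and hippocampus (1.53) and was 0.02 in cerebellum. Without the 6 arrays that held markers of another region the hippocampus values were 5.42 from P1 to P84 and 1.51 from P15 to P30, both called. Purkinje cell markers moved with it in cerebellum: all 4 measured (Pcp2, Calb1, Car8 and Rora) rose from P1 to P84, and their mean went from 10.67 to 11.12 on the P1 arrays to 12.61 to 12.81 at P84. Their part in the Pvalb result was not tested, and 14.3% of all probe sets were called higher from P1 to P84 in cerebellum.

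Calb2 turned in opposite directions in the cerebellum and the hippocampus. In cerebellum it rose from a median of 7.10 (5.38 to 7.85) at P1 to 11.78 (11.67 to 11.91) at P15 and then lay at 11.60 (11.40 to 11.92) and 11.57 (11.02 to 11.68). In hippocampus it held at 8.58 (7.08 to 8.81) and 8.27 (8.12 to 8.59) at P1 and P15 and then fell to 6.76 (6.01 to 7.19) at P30 and 6.18 (5.93 to 6.83) at P84, where no array reached the P15 range. In cortex the highest values came at P15 (median 5.76, 5.50 to 6.39), after 5.07 (4.08 to 5.72) at P1 and before 4.38 (4.17 to 5.05) at P30 and 4.31 (3.40 to 4.55) at P84. The change from P1 to P84 was 4.60 (4.13 to 5.07) in cerebellum and -2.08 (-2.55 to -1.61) in hippocampus, both called, and -0.87 (-1.34 to -0.40) in cortex, where t was short of the threshold but passed it without disomic replicate 3. Between P15 and P30 the gene fell in both forebrain regions, by 1.44 in cortex and by 1.59 in hippocampus. In cerebellum 3 of 4 granule cell markers (Gabra6, Cbln3 and Neurod1) rose over the same ages, and in 3 measured markers of unipolar brush cells, which also carry calretinin, 2 fell (Eomes and Otx2). Zic1 and Lmx1a, the other markers measured, were not among these. Of all probe sets 14.3% were called higher and 14.5% lower from P1 to P84 in cerebellum. Neither marker list was tested for its part in the Calb2 levels.

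Sst rose in the forebrain and fell in the cerebellum. In cortex the P1 arrays lay between 7.04 and 8.50 (median 7.40) and the P15 arrays between 9.56 and 10.14 (9.82), with medians of 9.92 and 9.77 at P30 and P84. Hippocampus was nearly the same, at 7.80 (7.10 to 8.76) at P1 and then 10.20, 9.88 and 9.71. Cerebellum started close to the forebrain, at a median of 7.25 (4.84 to 7.75, the lowest from the dim array), and then went to 4.04 (3.59 to 4.18) at P15, 2.92 (2.41 to 5.52) at P30 and 2.79 (2.29 to 3.25) at P84, the last around background. The single high value at P30, 5.52, belongs to the array with the thalamus markers, and the other 5 lay between 2.41 and 2.94. From P1 to P84 the change was 2.15 (1.54 to 2.76) in cortex, 1.90 (1.29 to 2.51) in hippocampus and -4.13 (-4.74 to -3.51) in cerebellum, the last a lower limit in size since P84 lay below the array median. Without the P1 hippocampus and P30 cerebellum arrays that held markers of another region, the P15 to P30 step in cerebellum also passed, at -1.17 against -0.68 with them.

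Vip was the gene with the most abrupt onset in the forebrain. At P1 all 18 arrays lay at or near background, from 2.53 to 3.43. By P15 the cortex arrays lay between 9.17 and 9.66 (median 9.32), and they lay between 9.22 and 9.67 at P30 and between 8.64 and 9.54 at P84. Hippocampus reached 7.39 (6.55 to 8.09) at P15, 7.43 (6.68 to 8.07) at P30 and 7.27 (6.21 to 7.70) at P84, below every cortex array of the same age. Cerebellum stayed between 2.48 and 3.75 at all ages, with the 3.75 on the array that had the thalamus markers. The P1 to P84 change was 6.01 (5.66 to 6.35) in cortex, 4.17 (3.83 to 4.52) in hippocampus and -0.06 (-0.40 to 0.29) in cerebellum, and of the cortical change 6.11 had come by P15. Since P1 was at background, the forebrain changes are lower limits.

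Npy was high in cortex from birth. Cortex medians were 10.65, 10.57, 10.57 and 10.30 at the 4 ages, with overlapping ranges and a P1 to P84 change of -0.33 (-0.64 to -0.01) that was not called. In hippocampus the level went from 8.48 (8.16 to 8.93) at P1 to 9.77 (9.55 to 10.04) at P15, a rise of 1.24, and lay at 9.32 at both later ages. Cerebellum held medians of 4.99 (4.34 to 5.36) and 4.68 (4.13 to 5.18) at P1 and P15 and then stepped up to 6.65 (6.34 to 7.21) and 6.84 (6.39 to 7.53), with no overlap. Its P15 to P30 rise was 1.97, whereas the called rises of the 4 peptide genes in forebrain lay between P1 and P15. From P1 to P84 the change was 1.92 (1.61 to 2.24) in cerebellum and 0.81 (0.50 to 1.13) in hippocampus, the latter 0.68 and not called without the 6 arrays with markers of another region.

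Cck rose in every region. Cortex went from a median of 9.22 (8.40 to 9.58) at P1 to 11.78 (11.22 to 12.07) at P15 and 11.95 (11.39 to 12.12) at P84. Hippocampus began higher, at 10.40 (9.34 to 10.88), and reached 11.77 at P15 and 11.91 at P84. Cerebellum climbed in a pair of similar steps, from 6.95 (5.81 to 7.20) to 7.70 (7.35 to 8.19) and 8.88 (8.73 to 9.10), with rises of 1.04 and 1.05. The P1 to P84 change was 2.76 (2.41 to 3.12) in cortex, 2.05 (1.69 to 2.40) in cerebellum and 1.49 (1.14 to 1.85) in hippocampus.

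Reln, the secreted guidance protein, fell in the forebrain and kept its level in the cerebellum. Hippocampus went from a median of 11.57 (11.22 to 11.78) at P1 to 9.89 (9.60 to 10.04), 8.80 (8.07 to 9.16) and 8.41 (8.04 to 8.76). Cortex went from 10.62 (10.37 to 10.83) to 10.04 (9.82 to 10.22), 9.28 (8.73 to 9.56) and 9.17 (8.87 to 9.45). In both regions the ranges of P1, P15 and P30 did not overlap with each other, while those of P30 and P84 did. The P1 to P84 change was -3.15 (-3.43 to -2.88) in hippocampus, -1.44 (-1.71 to -1.16) in cortex and 0.03 (-0.25 to 0.30) in cerebellum, whose arrays lay between 11.12 and 11.93 at all ages. The P1 to P15 step in cortex, -0.56, was no longer called with 4 of the 6 replicate numbers left out in turn (-0.47 to -0.57). Markers of Cajal-Retzius cells moved with Reln in hippocampus, where all 5 fell from P1 to P84 (Trp73 by 1.12 and Ndnf by 1.32), whereas in cortex 1 of 5 fell (Trp73, by 0.54). Their list mean in hippocampus was 3.88 to 4.14 at P1, and their part in the Reln result was not tested. Of all probe sets 13.8% were called lower from P1 to P84 in hippocampus and 15.8% in cortex. The other Reln probe set lay below the array median and changed by 0.12 or less in each region.

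Gad1 and Gad2, the enzymes of GABA synthesis, rose in all 3 regions. The residual standard deviation of Gad1, 0.145, was lower than that of most probe sets (percentile 11.0), but its other probe set gave 0.495 (percentile 94.1). Sst gave 0.544 (percentile 95.9) and Pvalb 0.491 (percentile 93.9). Gad1 went from medians of 9.21 in cortex, 9.91 in hippocampus and 10.68 in cerebellum at P1 to 11.13, 11.25 and 11.67 at P15 and 11.44, 11.37 and 12.16 at P84. The P1 and P15 ranges did not overlap in any region. The P1 to P84 change was 2.20 (2.03 to 2.38) in cortex, 1.54 (1.37 to 1.72) in hippocampus and 1.44 (1.27 to 1.62) in cerebellum, and 3.14, 2.31 and 2.54 by the other Gad1 probe set. Gad2 rose by 1.69 (1.37 to 2.01) in cortex, 1.72 (1.40 to 2.05) in hippocampus and 2.02 (1.70 to 2.34) in cerebellum, and by 0.78, 0.86 and 1.24 on its other probe set. Its forebrain medians peaked at P15, at 7.98 in cortex and 8.04 in hippocampus, while cerebellum went from 5.98 (4.05 to 6.36) at P1 to 6.92 (6.72 to 7.11), 7.61 (7.37 to 7.84) and 7.75 (7.55 to 7.98). The cerebellar step of 0.71 from P15 to P30 was called, but not with 5 of the 6 replicate numbers left out in turn (0.67 to 0.76), nor without the P1 hippocampus and P30 cerebellum arrays that held markers of another region (0.65).

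**Figure D2:**
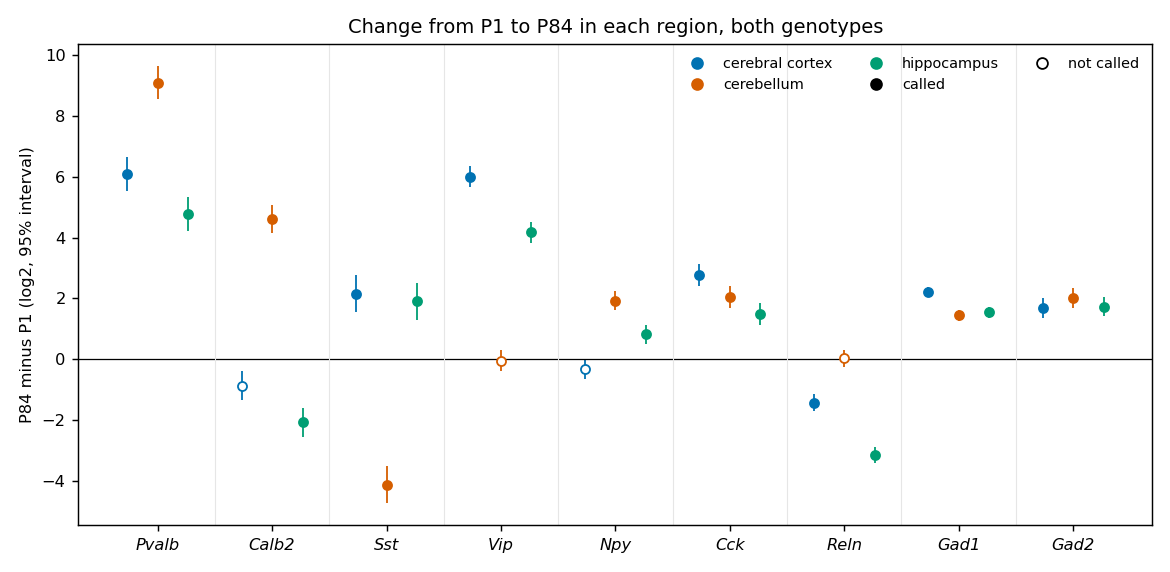
Change in log2 level from P1 to P84 (vertical axis) for the 9 genes in each region, averaged over both genotypes, with bars for 95% intervals, filled circles for called and open circles for other values. Gad1, Gad2 and Cck lie above 0 in all regions, while Calb2 (4.60 in cerebellum, -2.08 in hippocampus) and Sst (2.15 in cortex, -4.13 in cerebellum) take opposite signs.

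Counted over the genes, the P1 to P84 change was called higher in 6 and lower in 1 of the 9 in cortex (27.8% of all probe sets were called in either direction), higher in 6 and lower in 1 in cerebellum (28.7%) and higher in 7 and lower in 2 in hippocampus (25%). Of all probe sets 12.1%, 14.3% and 11.1% were called higher in these regions. Between P1 and P15 the counts were 6 higher and 1 lower in cortex (background 25.3%), 5 and 1 in cerebellum (23.2%) and 7 and 1 in hippocampus (19.9%). The falling genes were Reln in both forebrain regions and Sst in cerebellum. Between P15 and P30, Pvalb and Gad1 rose and Calb2 and Reln fell in cortex (background 2.22%), Npy, Cck, Gad1 and Gad2 rose in cerebellum (4.74%), and Pvalb rose while Calb2 and Reln fell in hippocampus (1.78%). From P30 to P84 none of the 9 was called, against backgrounds of 0.448%, 1.02% and 0.415% in cortex, cerebellum and hippocampus. The single probe set called in that interval was the other one of Gad2, in cerebellum, at 0.57. An unadjusted limma p under 0.05 was given for 0, 2 and 1 of the 12 member probe sets in cortex, cerebellum and hippocampus. Among all 45101 probe sets it was given for 2958, 4267 and 2253 in these regions.

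Between regions, the cerebellum stood apart from both forebrain regions and the sign depended on the gene. At P84 Calb2 was higher in cerebellum than in cortex by 7.30 (6.83 to 7.77), Pvalb by 3.75 (3.20 to 4.30), Reln by 2.41 (2.14 to 2.69) and Gad1 by 0.71 (0.53 to 0.88). Sst was lower there by -6.95 (-7.56 to -6.34), Vip by -6.46 (-6.81 to -6.12), Npy by -3.41 (-3.73 to -3.10) and Cck by -3.02 (-3.38 to -2.67). Sst and Vip lay below the array median in P84 cerebellum, so that their true differences may be larger. Every one of these 8 differences was called, and the sign of each was the same against hippocampus. Gad2 differed by 0.18 (-0.14 to 0.51) and was not called. The counts in cerebellum against cortex were 3 higher and 2 lower at P1 (background 14.8%), 4 and 5 at P15 (18.2%), 4 and 4 at P30 (18.6%) and 4 and 4 at P84 (18.3%). Against hippocampus they were 1 higher and 3 lower at P1 (11.5%), 3 and 5 at P15 (15%), 4 and 4 at P30 (17.8%) and 4 and 4 at P84 (17.9%). The extra lower gene at P15 was Gad2, at -1.04 against cortex and -1.10 against hippocampus. At P1 neither Pvalb, Sst nor Vip differed by a called amount between any regions, while Npy was already lower in cerebellum than in cortex, by -5.67, and Cck by -2.31.

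**Figure D3:**
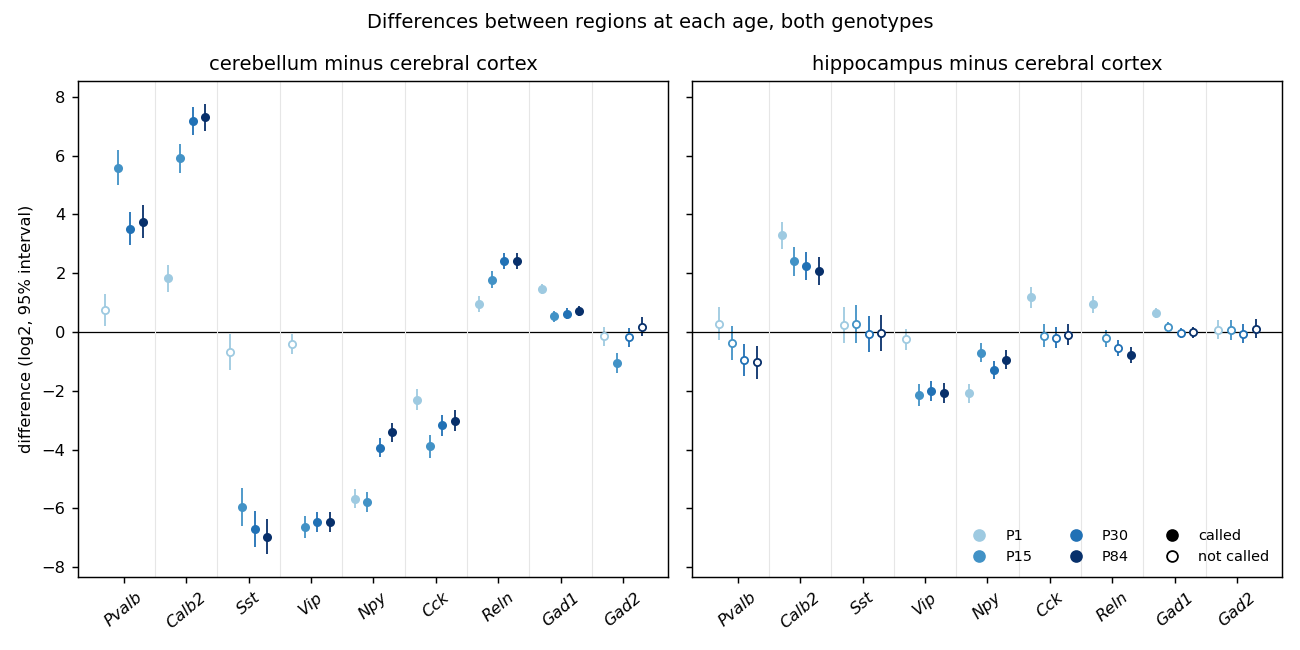
Difference in log2 level (vertical axis) of cerebellum from cortex, left, and of hippocampus from cortex, right, for the 9 genes at each age (darker with age), with bars for 95% intervals and filled circles for called values. The cerebellum differences of Pvalb, Sst and Vip are not called at P1 and exceed 3 in size from P15 on, and those of Npy and Cck are called at every age.

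Hippocampus and cortex were closer to each other. Calb2 was higher in hippocampus at every age, by 3.28, 2.40, 2.25 and 2.08 from P1 to P84. Vip was lower in hippocampus from P15 on, by -2.13, -2.00 and -2.08, and Npy was lower at every age, by -2.09, -0.70, -1.29 and -0.94. The counts were 4 higher and 1 lower at P1 (background 2.96%), 1 and 2 at P15 (3.91%), 1 and 2 at P30 (5.2%) and 1 and 3 at P84 (5.41%). At P1 alone Cck (1.18), Reln (0.94) and Gad1 (0.65) were higher in hippocampus by called amounts, and at P84 Reln was lower there, by -0.78, so that its order had turned. Sst did not differ at any age, with -0.02 (-0.63 to 0.59) at P84. Pvalb was -1.04 (-1.59 to -0.48) in hippocampus against cortex at P84, an adjusted p of 0.00727 with t short of the threshold, and it was -0.83 (adjusted p = 0.0585) without the 6 arrays that held markers of another region. Without these the P30 values of Pvalb, -0.96, and Reln, -0.65, were called.

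The P1 to P84 change itself differed between regions for 8 of the 9 genes. Cerebellum differed from cortex in 7 genes (background 15.7%), hippocampus from cortex in 5 (2.94%) and cerebellum from hippocampus in 6 (13.1%). Without the 6 arrays with markers of another region Cck (-1.15) and Npy (1.01) lost their calls for hippocampus minus cortex. The widest gaps were those of Calb2, whose change in cerebellum exceeded that in hippocampus by 6.68, and of Sst, whose change in cerebellum was -6.28 from that in cortex. Gad2 was the gene with no called difference between regions.

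**Figure D4:**
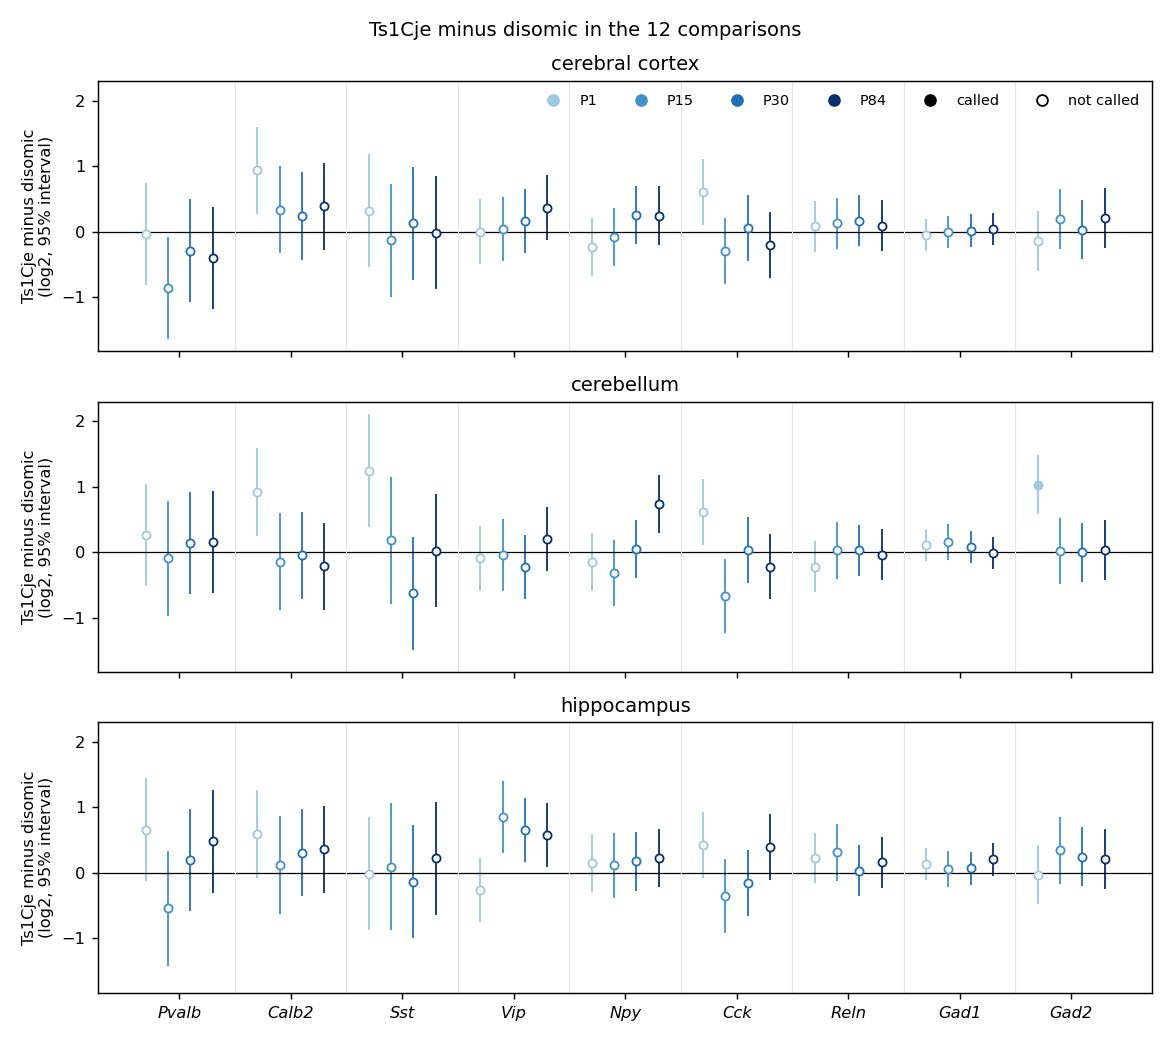
Ts1Cje minus disomic difference in log2 level of the 9 genes for each region (panels) and age (darker with age), with bars for 95% intervals and a filled circle for a called value. Most intervals include 0, the called value is Gad2 in P1 cerebellum at 1.03, and Vip lies above 0 in hippocampus at P15, P30 and P84.

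The comparison that the study was built for asks whether the extra chromosome 16 segment altered expression. Of 144 values (12 probe sets in 12 combinations of region and age), 1 was called: Gad2 in P1 cerebellum, where 0.661% of all probe sets were called, against 0.0996% over the 12 comparisons together. The other 11 comparisons called no member, and few probe sets of any gene: 0.0333%, 0.0111%, 0.0288% and 0.0732% from P1 to P84 in cortex, 0.00887%, 0.0687% and 0.153% from P15 to P84 in cerebellum, and 0.0244%, 0.0111%, 0.0333% and 0.0887% from P1 to P84 in hippocampus. Its disomic arrays read 5.89, 5.66 and 4.05 and its Ts1Cje arrays 6.06, 6.27 and 6.36. The groups did not overlap, as held for 8.59% of all probe sets in that comparison, but the 4.05 is the dim array. The difference was 1.03 (0.58 to 1.49, limma adjusted p = 0.0112) with that array and 0.46 without the 3 dim arrays (adjusted p = 0.523). The call also ended with any 1 Ts1Cje replicate left out, at 0.97 to 1.12. The other Gad2 probe set gave -0.03 (-0.40 to 0.35) with all values below the array median.

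Other members of the same comparison were larger in Ts1Cje with the dim array and less so without it. Sst read 6.88, 7.20 and 4.84 in the disomic and 7.61, 7.30 and 7.75 in the Ts1Cje mice, a difference of 1.25 (0.38 to 2.11, adjusted p = 0.113) that was 0.51 without the dim arrays and 1.69, a call, without disomic replicate 2. Calb2 gave 0.92 (0.25 to 1.59) and then 0.39, or 1.42, a call, without disomic replicate 2, and Cck gave 0.61 (0.11 to 1.11) and then 0.26. With all 70 arrays none of these was called. In P1 cortex, where no array is dim, Calb2 read 4.89, 4.84 and 4.08 in the disomic and 5.25, 5.72 and 5.65 in the Ts1Cje mice. The groups did not overlap (6.28% of all probe sets did not), and the difference of 0.93 (0.27 to 1.60) had an adjusted p of 1.

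Vip in hippocampus was higher in Ts1Cje at 3 of the 4 ages, without a call. At P15 the disomic arrays read 7.06 and 6.55 and the Ts1Cje arrays 7.51, 8.09 and 7.39. At P30 the values were 7.01, 7.45 and 6.68 against 7.60, 7.42 and 8.07, and at P84 7.33, 7.11 and 6.21 against 7.20, 7.51 and 7.70. The groups overlapped at P30 and P84 and not at P15, where 18.9% of all probe sets did not. The differences were 0.85, 0.65 and 0.58 at these ages and -0.26 at P1, and the P84 value was 0.24 without the dim arrays and 0.02 without the 6 arrays with markers of another region. Averaged over the 4 ages the difference was 0.46 (0.20 to 0.71, adjusted p = 0.223). This average was positive under every alternative tried and called under none, but the alternatives refit largely the same arrays. Its highest value, 0.79, came with the left-out disomic P15 hippocampus array returned. That array read 2.79, a cerebellum level, and raised the P15 difference to 2.19, so the 0.79 says nothing about genotype. The lowest, 0.29, came without the 6 arrays with markers of another region, where the differences were -0.17 at P1 and 0.47 at P30. In cortex the same average was 0.14 and in cerebellum -0.04, and the differences of the Vip effect between regions were not called either.

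Npy in P84 cerebellum also had groups that did not overlap, as did 9.54% of all probe sets there: 6.39, 6.56 and 6.61 in the disomic and 7.07, 7.53 and 7.17 in the Ts1Cje mice. The difference of 0.74 (0.29 to 1.18) had an adjusted p of 0.413. Averaged over all regions and ages, the genotype difference was 0.32 (0.12 to 0.51, adjusted p = 0.147) for Calb2, 0.19 (0.04 to 0.33) for Vip, 0.18 (0.05 to 0.31) for Gad2 and 0.07 (-0.01 to 0.14) for Gad1. For Sst it was 0.11 (-0.15 to 0.36), for Npy 0.10 (-0.03 to 0.23), for Reln 0.08 (-0.03 to 0.20), for Cck 0.02 (-0.13 to 0.17) and for Pvalb -0.03 (-0.26 to 0.20). No average was called for any member, against 0.217%, 0.286% and 0.202% of all probe sets in cortex, cerebellum and hippocampus and 0.659% over all regions. The unadjusted limma p was under 0.05 for 3 of the 12 member probe sets in that last average, and for 4207 of all 45101 probe sets. These intervals leave room for a change of up to 0.51 in Calb2 and of up to 0.14 in Gad1. Neither the change of the genotype effect across ages nor that across regions was called for a member (lowest adjusted p 0.369, for Gad2 across ages in cerebellum), where 0%, 0.0665% and 0.00443% of all probe sets were called across ages in cortex, cerebellum and hippocampus and 0% across regions. The P1 to P84 change of a member did not differ between genotypes by a called amount either, against 0%, 0.082% and 0% of all probe sets. In hippocampus all 12 member probe sets were above 0 at P84 and in the average over ages, with medians of 0.29 and 0.16, while 47.3% and 49.1% of all probe sets were above 0. Without the 3 dim arrays the count was again 12 for both, with medians of 0.26 and 0.18. Without the 6 arrays with markers of another region it was 11 at P84 and 9 in the average, with medians of 0.17 and 0.11. The probe sets share genes and arrays and the average includes P84, so these counts are not independent.

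The other genes of the pathway were read from lists set by function. Of 10 genes that handle GABA, 8 were measured, and from P1 to P84 4 rose in cortex, 5 in cerebellum and 4 in hippocampus, where 1 fell. Of all probe sets 12.1%, 14.3% and 11.1% were called higher and 15.8%, 14.5% and 13.8% lower in cortex, cerebellum and hippocampus, and these shares stand beside the counts of the next lists too. Abat, which breaks GABA down, rose by 3.09 in cortex, 1.11 in cerebellum and 2.50 in hippocampus. Slc32a1, which loads GABA into vesicles, rose by 2.50, 1.97 and 1.40. Glul, the glutamine synthetase that returns precursor to neurons, rose by 1.93, 1.21 and 1.78. The median change of the list was 0.67, 0.94 and 0.62 in cortex, cerebellum and hippocampus, where that over all probe sets lay within 0.02 of 0.

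Among transcription factors that specify interneurons, more fell than rose by called amounts in each region. Of 20 measured of 25, 0 rose and 9 fell in cortex, 1 rose and 7 fell in cerebellum, and 1 rose and 12 fell in hippocampus. Dlx1 fell by 3.96 in cortex and by 3.64 in hippocampus, and Lhx6, which parvalbumin and somatostatin cells keep, fell by 3.15 and by 3.20. Ptf1a, which commits cerebellar precursors to the GABAergic fate, fell by 3.08 in cerebellum. The list medians were -0.50, -0.14 and -0.72 in cortex, cerebellum and hippocampus.

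Of 14 measured receptors for the peptides and for reelin, 6 rose and 2 fell in cortex, 1 rose and 3 fell in cerebellum, and 6 rose and 3 fell in hippocampus. The 4 calls in cerebellum are a share near that of all probe sets, 28.7%. The cholecystokinin receptor gene Cckbr rose by 5.26 in cortex, and the neuropeptide Y receptor gene Npy2r rose by 3.92 in hippocampus. Among somatostatin receptor genes Sstr4 rose by 2.91 in cortex and 3.79 in hippocampus, whereas Sstr2 fell by 3.76 in cerebellum, where Sst fell too. The reelin receptor gene Lrp8 fell by 2.28 in cortex. Of 15 further genes of interneuron classes, 11 rose and 2 fell in cortex, 4 rose and 1 fell in cerebellum, and 10 rose in hippocampus. Kcnc1, a potassium channel of fast-spiking cells, rose by 5.36 in cerebellum, 4.42 in cortex and 4.07 in hippocampus, and Syt2, a vesicle calcium sensor, by 5.75 in cerebellum. Between genotypes these 4 lists gave 3 calls in 912 values (57 genes in 12 comparisons and 4 averages), where 0.661% of all probe sets were called in P1 cerebellum, 0.0333% in P1 cortex and 0.202% in the hippocampus average: Ptf1a in P1 cerebellum at 1.06, the comparison with the dim array, Sp8, of which Ts1Cje mice have lost 1 copy, in P1 cortex at -0.89, and Htr3a in the hippocampus average at 0.31. Averaged over the 70 arrays used, the levels of these 3 genes lay below the array median (Ptf1a 2.75, Sp8 2.43 and Htr3a 2.59). Such means run over all ages and regions and are not the levels in the called comparisons, and Ptf1a fell in cerebellum after P1.

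**Figure D5:**
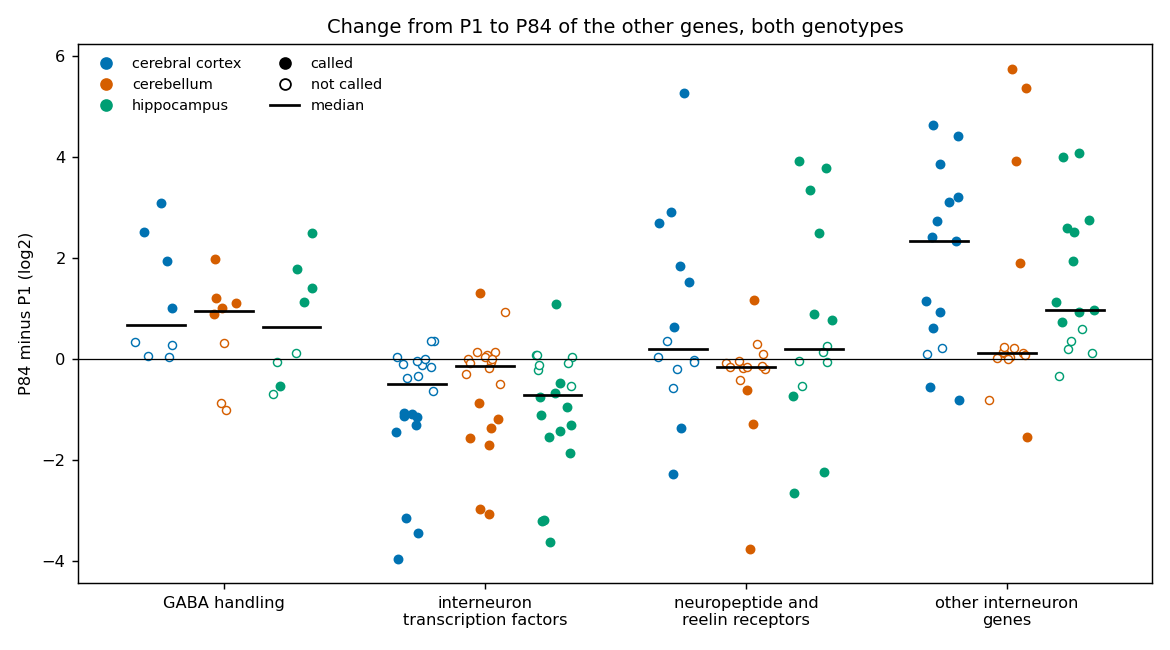
Change in log2 level from P1 to P84 for each measured gene of the 4 lists and in each region, with filled circles for called and open circles for other genes and a line at the median of each list. The transcription factors lie mostly below 0, the further interneuron genes mostly above 0 in cortex and hippocampus, and the receptors on both sides.

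The genes with the profiles closest to each member were taken by Pearson r over the 24 group means, which share arrays, ages and regions, so r is given as a description. Kcnc1 was closest to Pvalb (r = 0.983), followed by Syne1 and Tmem25 (0.982 each). Lamp5 was closest to Vip (0.992), with Slc30a3 at 0.988 and Ensa at 0.985, and Kcnq5 to Sst (0.987), with Palm2 at 0.984 and Mmd at 0.982. Lamp5 marks neurogliaform cells and superficial cortical neurons, and Slc30a3 loads zinc into glutamatergic vesicles. Calb2 was closest to Afap1l2 (0.961), Itgb1bp1 (0.947) and Elovl5 (0.945). Npy was closest to Mlip (0.957), Cntn3 and Nwd2 (0.953 each), and Cck to Gabrb1 (0.977), a GABA-A receptor subunit gene, with Hspa12a and Dnal1 at 0.970. Reln was closest to Nrep (0.965), Akap12 and Fzd1 (0.952 each), Gad1 to Pltp (0.983), Rit2 (0.979) and Chpt1 (0.976), and Gad2 to Dynlt3 (0.971), Dnajc27 and Adk (0.970 each). No member was among the 3 closest by rule, since members were not eligible.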

How the data were processed

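The authors deposited one table of log2 expression values, made with GCRMA (named in the submitters' processing notes; version not given in the sources used here), with 1 column for each of 72 arrays; the depth of an array has no count, so the number of arrays limits the precision. Probe sets were named from the platform annotation: 34958 had 1 symbol, 932 several and 9211 none. The fit was made in R 4.3.3 with lmFit and eBayes of limma 3.58.1, as 24 group means over 70 arrays, with 46 residual degrees of freedom and no filter. A call needed a moderated t of 4 or more in size and a p, adjusted after Benjamini and Hochberg across all probe sets, not above 0.05. Development and region contrasts average both genotypes, and the regions of a mouse share that mouse. Labels name biological replicates. The code was tested on simulated data. All member probe sets are named, the other genes are the closest in profile and the list genes with the largest t among those called. Members and lists were chosen with earlier results of these data known. Alternatives changed the arrays, normalization, filter, prior and blocks. Promoter windows are from RefSeq (GRCm38.p6).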

Additional observations from a re-analysis of the deposited data

Results flagged for a closer look

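The change from P1 to P84 differed between regions, by the test of the difference itself, in 18 cases. Each value below is the log2 change in the region named first minus that in the second. For cerebellum minus cortex it was 3.00 for Pvalb, 5.48 for Calb2, -6.28 for Sst, -6.06 for Vip, 2.25 for Npy, 1.47 for Reln and -0.76 for Gad1. For cerebellum minus hippocampus it was 4.32 for Pvalb, 6.68 for Calb2, -6.02 for Sst, -4.23 for Vip, 1.11 for Npy and 3.18 for Reln. The values of Pvalb, Sst and Vip involve levels below the array median and are approximate. For hippocampus minus cortex it was -1.83 for Vip, 1.14 for Npy, -1.27 for Cck, -1.72 for Reln and -0.66 for Gad1.

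The 2 disomic P15 arrays left out of the comparisons had levels of the other region. The array labelled hippocampus gave a log2 value of 11.84 for Pvalb and 11.86 for Calb2, where the other 5 hippocampus arrays of that age lay between 5.03 and 6.45 and between 8.12 and 8.59. The array labelled cerebellum gave 10.04 for Sst, 7.59 for Vip, 9.54 for Npy and 11.95 for Cck, where the other 5 cerebellum arrays reached at most 4.18, 2.84, 5.18 and 8.19. Whether the labels of the arrays were exchanged was not tested.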

How the results depend on the processing

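Of 147 called values of the 9 genes, 108 were called under every alternative in which they were computed, 39 lost the call in at least 1 and 0 changed sign. Of 240 values of these genes not called, 12 gained a call in at least 1. Most losses came with all 72 arrays as labelled (31) and with disomic mice only (19). The count of genotype calls, 1 of 144, was 0 with 1 fit per comparison, 0 with 1 fit per region, 0 with all 72 arrays, 0 without the 3 dim arrays and 0 without these and the P1 arrays with Xist above Eif2s3y, the last chosen after seeing the data. With a replicate number left out it ranged from 0 to 3. The 3 came without disomic replicate 2, where Gad2 (1.26), Sst (1.69) and Calb2 (1.42) in P1 cerebellum passed. Without Ts1Cje replicate 1 the count was again 1, from the Reln probe set below background (-0.86) in place of Gad2. The count of hippocampus against cortex calls over the 4 ages was 15 and fell to 9 with all 72 arrays as labelled, by the construction of that setting, which returns both P15 arrays with levels of the other region. All other counts stayed within 1.5 times.

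Whether replicate numbers pair the mice was not settled. The correlation of the deviations was over 0.1 in 24 of 34 pairs of same-numbered arrays of both genotypes, not in all, and 25 of 36 Ts1Cje arrays correlated best with their own number. With a replicate block within each age, or within each age and region, the genotype count was 1 in both cases and no call was lost or gained. The consensus correlation of regions from the same mouse number was 0.128. With the mouse as a random block 0 calls were lost and 3 were gained, all between regions. They were Pvalb (-1.04 at P84) and Reln (-0.54 at P30) for hippocampus minus cortex, and Gad1 (0.37 at P15) for cerebellum minus hippocampus.

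Leaving out 1 replicate number of a genotype ended the call of Reln from P1 to P15 in cortex (Ts1Cje 1 or 2, disomic 1 or 2), of Gad1 from P15 to P30 in cortex (each but disomic 3, at 0.35 to 0.40), of Gad2 from P15 to P30 in cerebellum (each but disomic 3) and of Npy between hippocampus and cortex at P15 (Ts1Cje 2, disomic 1 or 3, at -0.65 to -0.68). In the regional differences of development it ended the calls of Cck (-1.14 without Ts1Cje 1) and Gad1 (-0.58 without Ts1Cje 3, -0.59 without disomic 2) for hippocampus minus cortex, and of Npy (1.04 without Ts1Cje 2) for cerebellum minus hippocampus. Without Ts1Cje replicate 3 Pvalb was called lower in hippocampus than in cortex at P30 (-0.95) and P84 (-1.26). Signal close to background limits Pvalb and Vip at P1 and Sst and Vip in older cerebellum.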
